A study of Mus musculus with 24 samples.

Results

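The 10 endothelial genes described here were followed in mouse retina and eye cup after induction of the human transcription factor PRDM13. They were taken by name from the deposited table of 56748 genes, 10 of 10 were found, and every one passed the filter on low counts in every comparison. The genes are Cdh5, Pecam1, Kdr, Flt1, Tek, Tie1, Plvap, Cldn5, Vwf and Emcn, and the question was which of them fall in PRDM13-OE retinas given doxycycline (dox). RNA-seq libraries were made from neural retina and from eye cup, which holds the retinal pigment epithelium (RPE), choroid and sclera, of the same 12 mice, with 3 mice in each of 4 groups and 24 libraries in all. PRDM13-OE mice carried 1 copy of a Rosa26 knock-in in which the ubiquitous EF-1α promoter drives the dox-dependent activator rtTA and a TRE3G promoter drives 3xHA-tagged human PRDM13, and wildtype littermates lacked it. All mice were on a C57BL/6J background. Dox-treated mice of both genotypes drank 2 mg/ml dox with 10% sucrose for 72 hours from postnatal day 28, and for the untreated mice of both genotypes the sources do not state whether sucrose was given, so dox and sucrose cannot be told apart. The promoters are active in many cell types, so PRDM13 may be induced in vessels as well as in neurons, and the system can be leaky without dox.

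The retina is fed by vessels of 2 kinds. Its inner layers hold capillaries sealed by tight junctions, the inner blood-retina barrier, while the photoreceptors depend on the choriocapillaris, whose endothelium is pierced by fenestrae and leaks plasma toward the RPE. Vascular endothelial growth factor (VEGF-A) acts mainly through KDR (VEGFR2), the tyrosine kinase encoded by Kdr, whereas FLT1 (VEGFR1), encoded by Flt1, binds the ligand tightly and signals weakly. Tek encodes the angiopoietin receptor TIE2 and Tie1 its partner receptor. Cdh5 encodes VE-cadherin of endothelial adherens junctions, Pecam1 the adhesion molecule CD31, and Cldn5 claudin-5, the main tight junction protein of barrier vessels. Plvap forms the diaphragms of fenestrae and is scarce in barrier vessels. Vwf encodes the clotting glycoprotein von Willebrand factor and Emcn the sialomucin endomucin of capillaries and veins. Kdr is not confined to vessels in the eye, since retinal neurons are also known to make it.

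In the genome build of the table (GRCm39) the genes lie at chr8:104828257-104871143 (Cdh5, + strand), chr11:106545043-106641454 (Pecam1, −), chr5:76093487-76139118 (Kdr, −), chr5:147498414-147662821 (Flt1, −), chr4:94627526-94763213 (Tek, +), chr4:118328388-118347258 (Tie1, −), chr8:71950409-71964396 (Plvap, −), chr16:18595597-18597012 (Cldn5, +), chr6:125523737-125663642 (Vwf, +) and chr3:137046828-137137946 (Emcn, +). Cdh5 overlaps the antisense gene Gm29682, whose median count over the 24 libraries was 0. Plvap overlaps the antisense gene Gtpbp3, whose median count was 267, and since it is not stated whether the counting used strand, the low Plvap values of the retina are uncertain.

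The 250 bases upstream of the start of the Ensembl canonical transcript are shown for the VEGF receptor that fell most (Kdr), for the other VEGF receptor (Flt1), for the barrier gene (Cldn5) and for the fenestral gene (Plvap). They were read from GRCm39 at chr5:76139119-76139368 (Kdr, −), chr5:147662822-147663071 (Flt1, −), chr16:18595347-18595596 (Cldn5, +) and chr8:71964507-71964756 (Plvap, −), and are printed 5′ to 3′ on the strand of the gene. Capitals mark matches on either strand to the ETS cores AGGAAG or CGGAAG, to the GATA motif AGATAA or to the E-box CAGCTG, which were searched because ETS and GATA factors are known regulators of endothelial genes and E-boxes are bound by many bHLH partners.
Kdr: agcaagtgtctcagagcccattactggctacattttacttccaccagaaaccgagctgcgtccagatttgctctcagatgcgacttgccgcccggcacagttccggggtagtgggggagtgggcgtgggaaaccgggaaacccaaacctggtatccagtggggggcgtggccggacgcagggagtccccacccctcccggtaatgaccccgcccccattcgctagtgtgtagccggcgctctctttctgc
Flt1: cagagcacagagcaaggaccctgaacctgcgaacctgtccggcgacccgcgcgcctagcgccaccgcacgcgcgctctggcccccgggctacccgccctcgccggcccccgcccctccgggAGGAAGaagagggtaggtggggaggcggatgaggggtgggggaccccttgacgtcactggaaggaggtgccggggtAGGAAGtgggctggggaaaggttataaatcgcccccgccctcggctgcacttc
Cldn5: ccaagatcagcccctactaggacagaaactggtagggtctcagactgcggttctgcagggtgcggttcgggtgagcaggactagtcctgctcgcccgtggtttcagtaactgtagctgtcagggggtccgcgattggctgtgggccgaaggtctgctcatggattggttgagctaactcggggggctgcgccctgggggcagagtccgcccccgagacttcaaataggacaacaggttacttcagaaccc
Plvap: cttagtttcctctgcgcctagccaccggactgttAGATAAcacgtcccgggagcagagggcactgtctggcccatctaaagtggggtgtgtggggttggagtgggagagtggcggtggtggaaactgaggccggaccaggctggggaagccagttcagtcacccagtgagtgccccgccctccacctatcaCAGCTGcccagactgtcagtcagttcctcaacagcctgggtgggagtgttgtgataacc
The Kdr and Cldn5 windows held none of the 4 motifs. For Pecam1 and Vwf that transcript starts within the span of the gene given above, so their windows lie inside the gene. In the GENCODE annotation used for the windows Kdr extends to 76139884, so its window lies inside that longer span. AGGAAG was in 4 of the 10 windows (Flt1, Tie1, Vwf and Emcn), against 29.0% of the windows of 21778 protein-coding genes, and CGGAAG in 1 (Tie1), against 14.2%. AGATAA and CAGCTG were each in 1 window, that of Plvap, against 9.71% and 11.9% of all windows. None of these 4 motifs was therefore common to all 10 windows.

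The libraries held 15825059 to 24908314 counts. Levels are given as CPM, the counts of a gene relative to the library total after scaling with TMM factors within each tissue, or as FPKM where different genes are compared. Several marker sums varied between libraries. The 8 rod genes summed to 48805 to 55323 CPM in PRDM13-OE dox retinas, to 65429 to 71638 CPM in the other 9 retinas and to 2976 to 44073 CPM in eye cups, where 9 RPE and pigment genes ranged from 7472 to 49785 CPM. Lens crystallins, 8 genes in all, reached 10654 and 4447 CPM in wildtype dox retinas 1 and 2 and stayed at or below 771 CPM in the other 10 retinas. The female transcript Xist was present in 3 of 3 PRDM13-OE dox mice, 2 of 3 wildtype dox mice, 2 of 3 PRDM13-OE untreated mice and 1 of 3 wildtype untreated mice. The replicates are separate mice per the labels. In these bulk samples fewer endothelial cells and less RNA per cell cannot be told apart.

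The tissues differed in the kind of vessel gene they held. In untreated wildtype retinas Kdr was at 23.2 ± 3.3 FPKM (SD, n = 3) and Cldn5 at 14.9 ± 4.5, and the ranges of these top genes overlapped. Flt1 followed at 6.58 ± 0.22 FPKM, below all 3 values of Cldn5. Plvap was at 2.80 ± 0.57 FPKM, below all 3 values of Flt1. Cdh5 (2.15 ± 0.23), Tek (1.94 ± 0.19) and Pecam1 (1.65 ± 0.20) overlapped each neighbour in this order, and so did Plvap with Cdh5. Tie1 (1.19 ± 0.22) and Vwf (0.934 ± 0.22) overlapped each other, and Emcn was lowest at 0.311 ± 0.040 FPKM. The retina was thus led by a VEGF receptor and a tight junction gene.

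In the eye cups of the same mice the order changed. Plvap led at 218 ± 92 FPKM and Cldn5 followed at 78.1 ± 11, with no overlap between them or with Cdh5 at 17.7 ± 3.7. The other genes were at 16.0 ± 5.0 (Tie1), 13.2 ± 3.5 (Emcn), 10.0 ± 2.7 (Kdr), 7.74 ± 1.5 (Tek), 7.38 ± 1.8 (Pecam1), 5.86 ± 1.6 (Flt1) and 5.68 ± 1.9 FPKM (Vwf), each overlapping its neighbours. Set against Cdh5 in the same library, Kdr was at 10.8 ± 0.71 times its FPKM in the retina and at 0.559 ± 0.040 times in the eye cup. The ratio of Plvap to Cldn5 was 0.204 ± 0.095 in retinas and 2.72 ± 0.80 in eye cups. Of the 10 genes 8 were called higher in the eye cup, 25.9% of all genes tested being called higher, by edgeR's quasi-likelihood test with a Benjamini-Hochberg adjusted p under 0.05 and at least a log2 difference of 1.

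Plvap differed most (log2 fold change 6.28 ± 0.38 SE, adjusted p = 1.3e-05), followed by Emcn (5.41 ± 0.25, adjusted p = 4.8e-06), both genes of fenestrated or venous endothelium. Tie1 (3.75), Cdh5 (3.04), Vwf (2.60), Cldn5 (2.40), Pecam1 (2.16) and Tek (1.99) were also higher on the log2 scale. Kdr was the exception, lower in the eye cup by a log2 fold change of -1.21 ± 0.22 (adjusted p = 0.0022), with 19.3% of all genes called lower. Flt1 was at -0.16 ± 0.19 (adjusted p = 0.470). Over 12 alternatives it was at -0.457 to -0.055 and passed in 1 of them. The 2 VEGF receptors were thus the genes that were not higher in the eye cup. Whether part of the Kdr RNA of the retina comes from neurons was not tested.

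**Figure D1:**
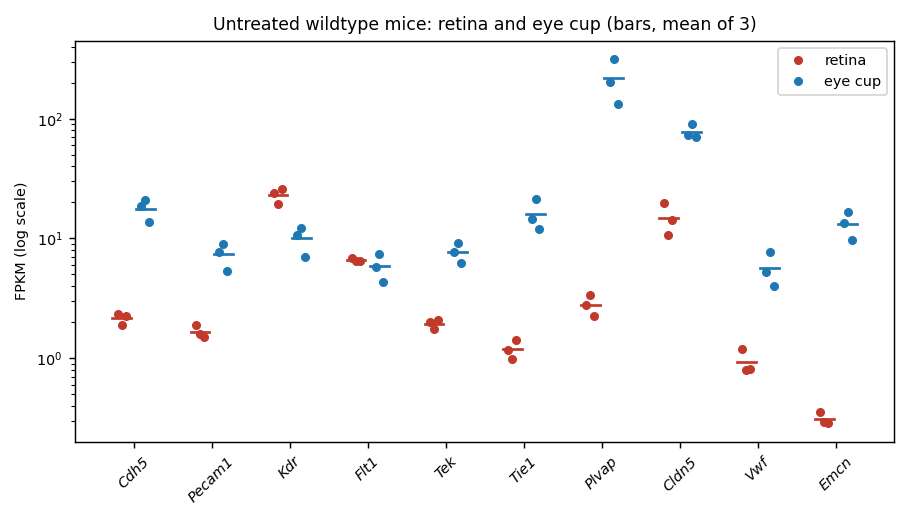
FPKM (log scale) of the 10 endothelial genes in the 3 retinas (red) and 3 eye cups (blue) of untreated wildtype mice, with points for libraries and bars for means. Plvap, at 134 to 317 FPKM, sits highest in the eye cup and Kdr, at 19.5 to 25.9 FPKM, highest in the retina, where Kdr exceeds its own eye cup values.

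In the retina Kdr fell in PRDM13-OE mice given dox. It was at 113, 92.1 and 92.0 CPM in the 3 PRDM13-OE dox retinas and at 253, 250.5 and 244 CPM in the wildtype dox retinas. The groups were far apart, and the untreated PRDM13-OE (245, 197 and 202 CPM) and untreated wildtype retinas (236, 195 and 253 CPM) lay with the wildtype dox group. The fold change was 2.52-fold lower (log2 fold change -1.33 ± 0.08 SE, adjusted p = 8.8e-07). Kdr was the 1 gene of the 10 that was called lower by those 2 criteria, with 1.5% of the 20560 genes tested called lower. It passed under all 15 alternative settings, with log2 fold changes of -1.45 to -1.16.

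**Figure D2:**
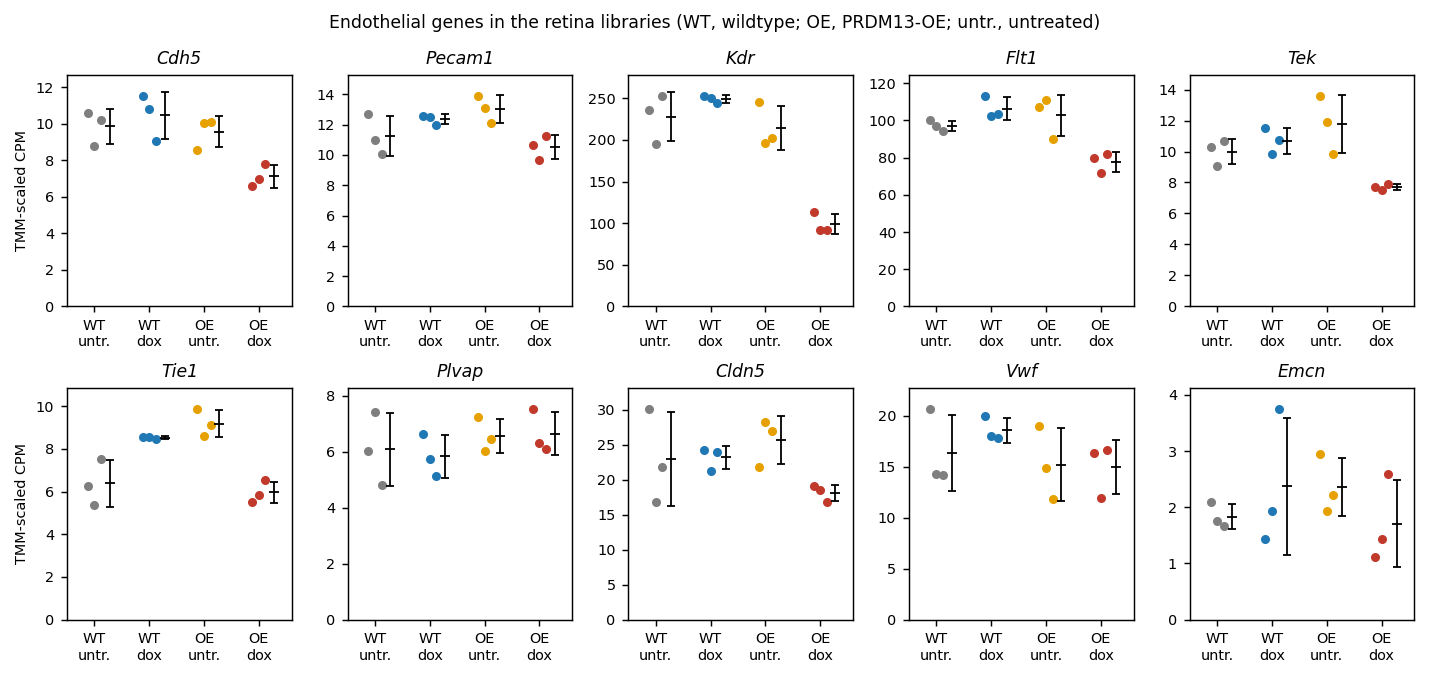
TMM-scaled CPM of each gene in the 12 retina libraries, by group, with points for libraries and black marks for mean ± SD (n = 3). The 3 PRDM13-OE dox retinas lie below every other retina for Kdr (92.0 to 113 CPM against 195 and more), Flt1, Tek and Cdh5, while the groups overlap for Plvap.

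With no fold change cutoff 6 genes passed at adjusted p under 0.05, all lower, where 7.51% of all genes passed lower. The other VEGF receptor, Flt1, was at 79.6, 71.7 and 82.0 CPM with PRDM13-OE and dox and at 113, 102 and 104 CPM in wildtype dox retinas. The 3 values lay below those of the other 9 retinas, the lowest of which was 90.2 CPM. The log2 fold change was -0.46 ± 0.07 (adjusted p = 9.5e-04), and it passed under all 15 alternatives. Of the 10 genes 4 had all PRDM13-OE dox retinas below the other 9, Cdh5, Kdr, Flt1 and Tek, as did 4.82% of all genes. Kdr and Flt1 together are the signalling and the ligand-trapping receptor of VEGF-A.

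The angiopoietin receptors were lower as well. Tek was at 7.71, 7.52 and 7.87 CPM in PRDM13-OE dox retinas and at 11.5, 9.83 and 10.7 CPM in wildtype dox retinas (log2 fold change -0.48 ± 0.12, adjusted p = 0.0224). Tie1 was at 5.53, 5.82 and 6.52 CPM against 8.57, 8.54 and 8.45 CPM (-0.52 ± 0.13, adjusted p = 0.0221). The groups did not overlap for either receptor, but untreated wildtype retinas held Tie1 at 5.35 to 7.53 CPM, within reach of the PRDM13-OE dox values.

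Among the junction genes, Cdh5 was at 6.59, 6.98 and 7.82 CPM in PRDM13-OE dox retinas and at 11.5, 10.8 and 9.05 CPM in wildtype dox retinas (log2 fold change -0.56 ± 0.14, adjusted p = 0.0190). The barrier gene Cldn5 was at 19.1, 18.5 and 16.8 CPM against 24.3, 21.3 and 24.0 CPM (-0.36 ± 0.09, adjusted p = 0.0182). Both groups of values were separate, although wildtype untreated retina 2 had Cldn5 at 16.9 CPM without either PRDM13 or dox. Pecam1 was at 9.67 to 11.3 CPM against 12.0 to 12.6 CPM, separate but short of the threshold (-0.24 ± 0.11, adjusted p = 0.180).

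The fenestral gene Plvap did not follow. It was at 7.53, 6.32 and 6.09 CPM in PRDM13-OE dox retinas and at 6.63, 5.74 and 5.12 CPM in wildtype dox retinas, from 86 to 128 counts a library, and the groups overlapped. The log2 fold change was 0.18 ± 0.16 (adjusted p = 0.514), the only one of the 10 above 0. The ratio of Plvap to Cldn5 was 0.261 ± 0.019 in PRDM13-OE dox retinas and 0.179 ± 0.024 in wildtype dox retinas, and untreated wildtype retinas spanned 0.143 to 0.314. Vwf was at 11.9 to 16.7 CPM against 17.8 to 20.0 CPM (-0.32 ± 0.12, adjusted p = 0.116), and it passed in 1 of 15 alternatives, with no filter on low counts (adjusted p = 0.0224). Emcn, at 19 to 63 counts a library, overlapped between the groups (-0.46 ± 0.39, adjusted p = 0.503), and its sign turned without wildtype dox retina 3 (0.028).

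Counted together, 8 of the 10 genes had PRDM13-OE dox values wholly below those of wildtype dox, where 15.6% of all genes did. Of the 10 log2 fold changes 9 were below 0 (8 without wildtype dox retina 3, where Emcn was at 0.028), and their median was -0.46, beside 0.0056 over all 20560 genes. Kdr made up 36.9% to 42.4% of the counts of the 10 genes in PRDM13-OE dox retinas and 48.9% to 59.1% in the other 9. Without Kdr the summed level of the other genes was 140 to 158 CPM against 191 to 210 CPM. Of the 6 genes 4 lost the threshold when 1 library was left out: Cdh5 without PRDM13-OE dox retina 1 or 2 or wildtype dox retina 1 or 2, Tek without any PRDM13-OE dox retina or wildtype dox retina 1, Tie1 without PRDM13-OE dox retina 1 or 2 or wildtype dox retina 1 or 2, and Cldn5 without PRDM13-OE dox retina 2 or 3 or wildtype dox retina 1 or 3. These 4 genes also lost it with the lens crystallin sum as a covariate, with adjusted p of 0.353 to 0.689, where over the 15 alternatives each spanned 0.0026 to 0.50 (Cdh5), 0.012 to 0.353 (Tek), 0.015 to 0.400 (Tie1) and 0.0020 to 0.689 (Cldn5). With sex as a covariate Tie1 and Cldn5 lost it too, and Cldn5 also with library size scaling or all 12 retinas in the fit. The lens crystallin sum was 3.23 to 23.8 CPM in PRDM13-OE dox retinas and 96.7 to 10654 CPM in wildtype dox ones. Since these ranges do not overlap, that covariate cannot tell the part of lens RNA from the part of the group. The log2 fold changes stayed below 0 in every one of the 15 alternatives, at -0.65 to -0.38 (Cdh5), -0.54 to -0.39 (Tek), -0.59 to -0.43 (Tie1) and -0.42 to -0.27 (Cldn5).

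Red blood cell RNA moved with the group. The 5 red cell genes (4 globins and Alas2) summed to 0.706 to 1.19 CPM in PRDM13-OE dox retinas and to 21.6 to 77.9 CPM in the other 9 retinas. Against wildtype dox retinas 5 of 5 were called lower, with 1.5% of all genes called lower. The 8 rod genes were at 48805 to 55323 CPM against 65872 to 67778 CPM in wildtype dox retinas, and the 6 Müller glia genes at 5948 to 6240 CPM against 5905 to 6157 CPM. The 8 macrophage and microglia genes summed to 69.4 to 76.3 CPM in PRDM13-OE dox retinas, above the other 9 retinas (47.5 to 65.9 CPM), with 7 of 8 genes above 0 and C1qc past the threshold with no cutoff (0.46, adjusted p = 0.0327). The 9 RPE and pigment genes were at 165 to 176 CPM against 204 to 239 CPM in wildtype dox retinas. The part of these cells in the endothelial values was not tested.

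Dox alone and genotype alone were then compared in the retina. Between wildtype dox and wildtype untreated retinas 0 of the 10 genes were called by edgeR or by DESeq2, where edgeR called 0.00485% of all genes, and 1 had an unadjusted p under 0.05, against 9.32% of all genes. That gene was Tie1, at a log2 fold change of 0.41 ± 0.15 (adjusted p = 0.426), while Kdr was at 0.13 ± 0.08 (adjusted p = 0.699). Flt1 and Tie1 had separate groups, higher with dox, as did 6.76% of all genes. Between untreated PRDM13-OE and untreated wildtype retinas 0 of the 10 were called by edgeR or by DESeq2, with 0% of all genes called by edgeR, and 1, again Tie1, had an unadjusted p under 0.05 (0.53 ± 0.16, adjusted p = 0.995), against 3.76% of all genes. Its groups were separate, higher in PRDM13-OE, as for 4.61% of all genes. Kdr was at -0.08 ± 0.10 (adjusted p = 0.995).

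Within PRDM13-OE retinas the libraries with dox were set against those without, in a comparison that shares the PRDM13-OE dox libraries with the one against wildtype. Kdr was lower by a log2 fold change of -1.11 ± 0.10 (adjusted p = 1.8e-05) and was the 1 gene called lower, with 0.621% of all genes. With no cutoff 5 genes passed, all lower, where 2.96% of all genes passed lower. Besides Kdr these were Tie1 (-0.62 ± 0.14, adjusted p = 0.0228), Tek (-0.62 ± 0.14, adjusted p = 0.0247), Cldn5 (-0.51 ± 0.11, adjusted p = 0.0153) and Flt1 (-0.41 ± 0.08, adjusted p = 0.0119). Cdh5 (-0.43 ± 0.14, adjusted p = 0.128), Pecam1 (-0.31 ± 0.12, adjusted p = 0.210) and Emcn (-0.46 ± 0.33, adjusted p = 0.590) did not pass. Plvap (0.01 ± 0.16) and Vwf (-0.03 ± 0.17) lay near 0. Of the 10 genes 7 had separate groups, lower with dox, as did 10% of all genes. Kdr passed in 15 of 15 alternatives. The others lost the threshold when 1 library was left out: Flt1 without PRDM13-OE dox retina 2 (adjusted p = 0.093), Tek without any PRDM13-OE dox retina or PRDM13-OE untreated retina 1 or 2 (up to 0.115), Tie1 without any PRDM13-OE dox retina or PRDM13-OE untreated retina 1 (up to 0.111), and Cldn5 without PRDM13-OE dox retina 2 or 3 or PRDM13-OE untreated retina 2 or 3 (up to 0.093). Cldn5 also lost it with all 12 retinas in the fit, the lens crystallin sum or sex (up to 0.147). Over the 15 alternatives the log2 fold changes were -0.50 to -0.34 (Flt1), -0.73 to -0.50 (Tek), -0.69 to -0.56 (Tie1) and -0.62 to -0.42 (Cldn5).

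The difference between genotypes in the response to dox was tested directly over the 12 retinas. Kdr (-1.24 ± 0.14, adjusted p = 4.9e-05) and Tie1 (-1.04 ± 0.20, adjusted p = 0.0061) were called, 2 of the 10 genes, both lower, where 0.515% of the 22538 tested were called lower. For Tie1 the difference has 2 sides, since its level was 9.87, 8.59 and 9.10 CPM in untreated PRDM13-OE retinas and 6.27, 5.35 and 7.53 CPM in untreated wildtype retinas, before dox was given. With no cutoff Flt1 (-0.54 ± 0.11, adjusted p = 0.0095) and Tek (-0.71 ± 0.18, adjusted p = 0.0453) passed too, where 1.83% of all genes did so in that direction. Cldn5 was at -0.52 ± 0.22 (adjusted p = 0.277) and Plvap at 0.07 ± 0.24 (adjusted p = 0.929). Tek kept the threshold in 5 of 20 alternatives (adjusted p 0.014 to 0.127; differences of -0.82 to -0.59), and of the 12 fits that left out 1 retina it kept it in the one without PRDM13-OE untreated retina 3. Tie1 kept it in 20 of 20 but fell short of the fold cutoff without PRDM13-OE untreated retina 1 or without wildtype untreated retina 2, which left 1 gene called.

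**Figure D3:**
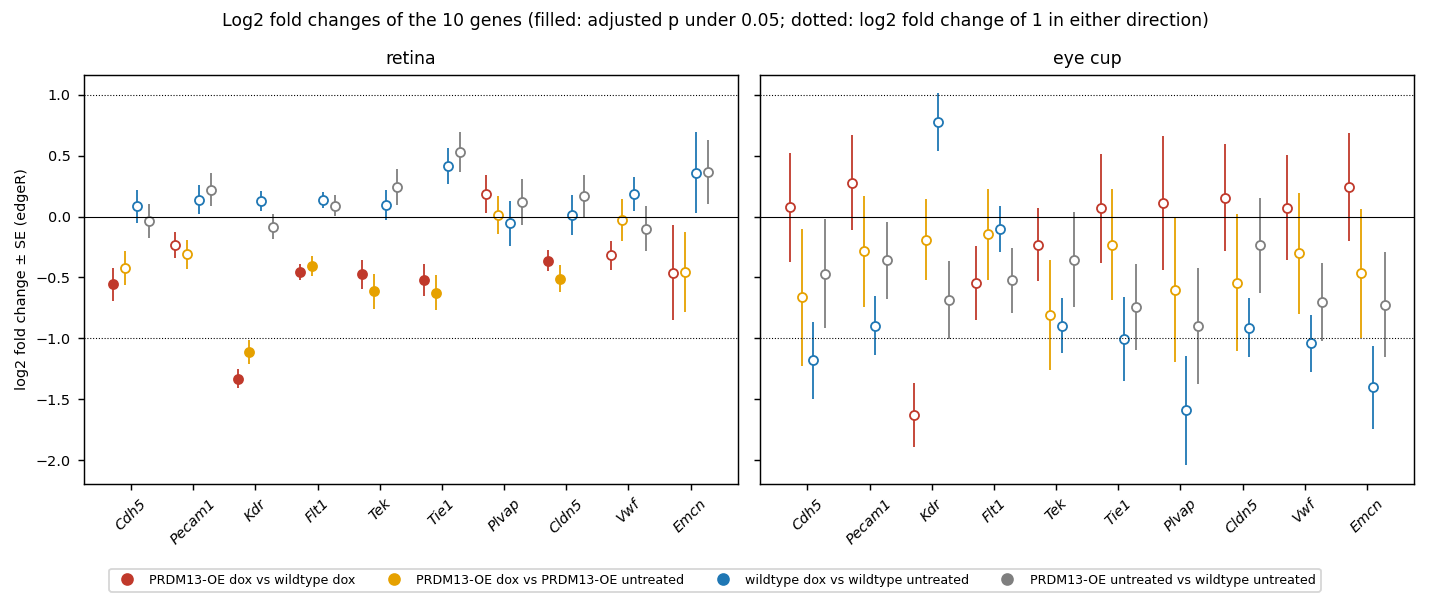
Log2 fold changes ± SE of the 10 genes from edgeR in 4 comparisons, in retina (left) and eye cup (right). Filled points had an adjusted p under 0.05, and dotted lines mark a log2 fold change of 1 in either direction. In the retina the 2 comparisons that involve PRDM13-OE with dox put Kdr at -1.33 and -1.11 and Plvap at 0.18 and 0.01, and in the eye cup no point is filled.

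Other vessel genes of the retina were read from lists, of which the other pan-endothelial one was closest to the 10 genes. Of its 20 genes 17 were below 0 between PRDM13-OE dox and wildtype dox, with a median of -0.26, and 2 passed with no cutoff, a share near the 7.51% of all genes that passed lower. These were the sphingosine-1-phosphate receptor S1pr1 (45.4, 37.5 and 41.6 CPM against 53.2, 52.9 and 59.3 CPM; log2 fold change -0.42, adjusted p = 0.0048) and the adhesion gene Esam (-0.34, adjusted p = 0.0336). Of 16 blood-retina barrier genes 14 were below 0, with a median of -0.21, and 1 passed, no larger a share than the 7.51% of all genes. This was Slco1c1, a carrier of thyroid hormone across barrier endothelium, at 10.8, 8.29 and 10.1 CPM against 13.3, 17.8 and 16.7 CPM (-0.71, adjusted p = 0.0049). None of the other 15 barrier genes passed, Mfsd2a and the glucose carrier Slc2a1 among them.

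The ligand list had a median nearer 0. Of 10 VEGF and angiopoietin ligands and co-receptors 6 were below 0, with a median of -0.10. Nrp2, a co-receptor of VEGF, passed with no cutoff (-0.30, adjusted p = 0.0162), and the VEGF-family ligand Pgf was called (-1.84, adjusted p = 0.0446), with 1.5% of all genes called lower. Pgf rested on few reads, 4, 6 and 9 counts in PRDM13-OE dox retinas against 30, 31 and 7 in wildtype dox retinas. Its high counts were those of the 2 wildtype dox retinas with high crystallins.

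Of 10 genes of norrin and Wnt barrier signalling 9 were below 0, with a median of -0.39. Adgra2 (GPR124), the receptor that lets endothelium answer WNT7, was at 30.5, 29.1 and 31.9 CPM in PRDM13-OE dox retinas and at 54.3, 55.9 and 60.4 CPM in wildtype dox retinas (-0.90, adjusted p = 4.9e-06). The norrin receptor Fzd4 was at 12.4, 11.4 and 12.2 CPM against 17.4, 17.3 and 15.8 CPM (-0.50, adjusted p = 0.0046). Both groups were separate, lower, as for 15.6% of all genes. Both genes passed with no cutoff, where 7.51% of all genes passed lower. Wnt7a and Wnt7b were called lower, with 1.5% of all genes, but Wnt7b was at 2, 1 and 1 counts against 423, 446 and 2, and Wnt7a at 1, 0 and 0 counts against 82, 43 and 1. The third wildtype dox retina, with 96.7 CPM of crystallins, had as few reads of both ligands as the PRDM13-OE dox retinas.

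Artery, vein and tip cell genes held a second large fall. Unc5b, a guidance receptor of arterial and tip cell endothelium that neurons also make, was at 11.4, 9.72 and 10.5 CPM in PRDM13-OE dox retinas and at 25, 24.3 and 24.5 CPM in wildtype dox retinas (-1.23, adjusted p = 3.6e-06). The tip cell peptide Apln was at 1.71, 1.32 and 1.02 CPM against 3.6, 2.85 and 3.33 CPM (-1.28, adjusted p = 0.0057). Of the 13 genes tested 10 were below 0, with a median of -0.21, and these 2 were called, with 1.5% of all genes called lower. Untreated wildtype retinas held Apln at 1.36 to 2.95 CPM, which overlaps the PRDM13-OE dox values.

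Of 12 mural cell genes, which mark pericytes and smooth muscle, 11 were below 0, with a median of -0.33. The smooth muscle genes Acta2 (-2.16, adjusted p = 0.0222) and Myh11 (-1.80, adjusted p = 0.0392) were called, with 1.5% of all genes called lower. Acta2 was at 41, 52 and 38 counts in PRDM13-OE dox retinas against 370, 162 and 47, and Myh11 at 21, 29 and 31 counts against 179, 70 and 29. For both the third wildtype dox retina lay with the PRDM13-OE dox retinas, and the high counts were those of the 2 wildtype dox retinas with high crystallins. With no cutoff the pericyte genes Notch3 (-0.65) and Abcc9 (-0.58) passed too, where 7.51% of all genes passed lower. All 3 values of each lay below those of wildtype dox, as for 15.6% of all genes. Over the other marker lists the genes called between PRDM13-OE dox and wildtype dox were 5 of 5 red cell genes and 8 of 8 lens crystallins, all lower, the pigment genes Mlana and Pmel, lower, and the platelet integrin Itga2b, higher.

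The same list genes were followed in the other retina comparisons. Between PRDM13-OE dox and PRDM13-OE untreated retinas Unc5b (-1.20, adjusted p = 2.3e-05) was called, and Adgra2 (-0.83, adjusted p = 1.4e-05), Slco1c1 (-0.75, adjusted p = 0.0025), Fzd4 (-0.68, adjusted p = 0.0074) and S1pr1 (-0.32, adjusted p = 0.0388) passed with no cutoff. In the test of the difference between genotypes Unc5b (-1.24, adjusted p = 1.5e-05), Adgra2 (-0.95, adjusted p = 1.5e-05) and Slco1c1 (-0.94, adjusted p = 0.0049) passed. Over all genes 2.96% passed lower with no cutoff in the first of these comparisons, where 0.621% were called lower, and 1.83% in the second. Of the ligands and the mural genes none passed in those comparisons, the smallest adjusted p being 0.358 for Vegfb and 0.091 for Myh11 in the first and 0.287 for Pgf and 0.051 for Abcc9 in the second. In the 2 retina comparisons that do not involve PRDM13-OE with dox no gene of these lists passed.

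In the eye cup many of the 10 genes varied widely between libraries of 1 group, though not in every group. Plvap, for example, ranged from 73.0 to 260.0 CPM in the PRDM13-OE dox eye cups and from 251 to 604 CPM in untreated wildtype ones. Between PRDM13-OE dox and wildtype dox eye cups edgeR called 0 of the 10 genes, with 0.0184% of 21758 genes called, 1 had an unadjusted p under 0.05, against 8.24% of all genes, and DESeq2 called 1 lower, with 0.271% of all genes. That gene was Kdr, at 33.5, 46.2 and 58.7 CPM in PRDM13-OE dox eye cups and at 173, 152 and 114 CPM in wildtype dox eye cups. Untreated PRDM13-OE eye cups held it at 55.6, 65.2 and 34.8 CPM, overlapping the PRDM13-OE dox values (dox against untreated, log2 fold change -0.19 ± 0.33, adjusted p = 0.975), and untreated wildtype ones at 87.1, 106 and 59.8 CPM. The 2 dox groups were separate, with the wildtype dox values above all other 9 eye cups, and the log2 fold change was -1.63 ± 0.26 (adjusted p = 0.528 with edgeR). The 5 red cell genes moved with the group in this tissue too, summing to 12.1 to 14.7 CPM in PRDM13-OE dox eye cups and to 236 to 568 CPM in wildtype dox ones. The rod sum was 5224 to 33769 CPM against 23153 to 44073 CPM and the lens crystallin sum 4.84 to 312 CPM against 564 to 2804 CPM. With all 12 eye cups and the rod sum as a covariate the Kdr log2 fold change was -1.56 ± 0.34 (adjusted p = 0.312), and the part of the red cell and lens RNA was not tested.

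The adjusted p of Kdr in the eye cup spanned 1.3e-04 (DESeq2) to 0.971 over the 15 alternatives, and it passed in 2 of them, the other being the fit without PRDM13-OE dox eye cup 3 (log2 fold change -1.85, adjusted p = 0.0136). That library had the most rod RNA of its group, 33769 CPM. Flt1 was at 25.1, 57.1 and 58.1 CPM against 69.7, 69.9 and 69.6 CPM (-0.55 ± 0.30, adjusted p = 0.604). Kdr and Flt1 were the 2 genes with separate groups, where 8.87% of all genes lay wholly lower. The other 8 genes had log2 fold changes of -0.23 (Tek) to 0.28 (Pecam1), with Plvap at 0.11 ± 0.55 and Cldn5 at 0.15 ± 0.44, and the median of the 10 was 0.073 beside 0.053 over all genes.

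**Figure D4:**
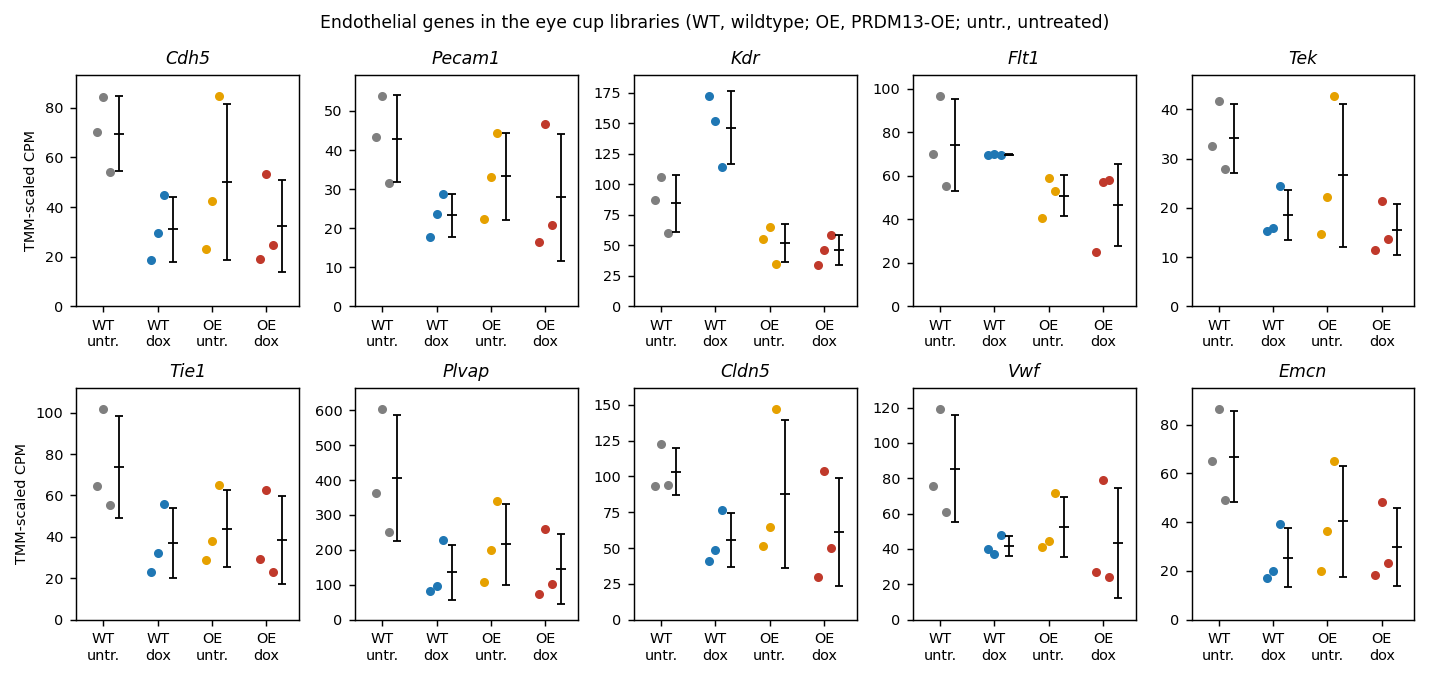
TMM-scaled CPM of each gene in the 12 eye cup libraries, by group, with points for libraries and black marks for mean ± SD (n = 3). Kdr is at 33.5 to 58.7 CPM in the PRDM13-OE dox eye cups and at 114 to 173 CPM in the wildtype dox ones. Plvap spreads widely within each group, while Flt1 is at 69.6 to 69.9 CPM in the wildtype dox eye cups.

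Dox in wildtype mice went with a different pattern. In eye cups of wildtype dox mice 9 of the 10 genes were below those of untreated wildtype mice, with a median log2 fold change of -0.96 beside -0.046 over all 21799 genes. Plvap was at 83.3, 95.4 and 227 CPM against 362, 604 and 251 CPM (-1.59 ± 0.45, adjusted p = 0.0813), and Emcn at 17.0, 20.1 and 39.3 CPM against 65.0, 86.4 and 49.1 CPM (-1.40 ± 0.34, adjusted p = 0.0701). Kdr went the other way, at 173, 152 and 114 CPM against 87.1, 106 and 59.8 CPM (0.78 ± 0.24, adjusted p = 0.0899), and it passed in 1 of 15 alternatives, DESeq2 (adjusted p = 0.0291, range 0.0291 to 0.911). The groups of 7 genes were wholly lower, as for 15.4% of all genes, and Kdr had groups wholly higher, where 22.1% did.

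In that comparison edgeR called 0 of the 10 genes and 0% of all genes, while 9 of the 10 had an unadjusted p under 0.05, as did 29.9% of all genes. DESeq2 called 5 lower, with 2.74% of all genes. Without wildtype dox eye cup 3 edgeR called 6 lower, with 2.69% of all genes, and without wildtype untreated eye cup 1 it called 1, with 2.15%. The rod sum moved with dox, at 44073, 33515 and 23153 CPM in wildtype dox eye cups and at 22069, 2976 and 11502 CPM in untreated ones, and the RPE and pigment sum moved the opposite way, at 9238 to 20359 CPM against 26823 to 42945 CPM. With all 12 eye cups in the fit 7 of the 10 genes had an unadjusted p under 0.05, against 18.1% of all genes, and with the rod sum added as a covariate 0 did, against 4.64%.

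The remaining eye cup comparisons called 0 of the 10 genes with edgeR and with DESeq2. Between untreated PRDM13-OE and untreated wildtype eye cups 0 had an unadjusted p under 0.05, where 1.87% of all genes did and edgeR called 0%, and the median log2 fold change was -0.61. Between PRDM13-OE dox and PRDM13-OE untreated eye cups 0 had one, where 4.14% of all genes did and 0.0139% were called, and the median was -0.38. In the test of the difference between genotypes in the response to dox 1 had one, against 6.4% of all genes. That gene was Kdr, at -0.96 ± 0.42 (adjusted p = 0.753). Whether the Kdr difference between genotypes under dox was unequal in the 2 tissues was tested in the dox-treated mice, and retina minus eye cup was 0.28 ± 0.28 (adjusted p = 0.768). Of the 10 genes 0 were called there, with 0% of all genes, and 0 had an unadjusted p under 0.05, against 7.17% of all genes. The main fit of this comparison did not pair the 2 tissues of a mouse. The rod sum was 23153 to 44073 CPM in wildtype dox eye cups and 65872 to 67778 CPM in wildtype dox retinas. The part of retinal RNA in the Kdr values of the eye cup was not tested in this comparison.

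Across the 12 eye cups the 8 genes other than Kdr and Flt1 varied together, a grouping made after their values were seen. Pearson r of log2 levels was 0.88 to 0.99 over the 28 pairs of these 8 genes. Kdr had r of -0.14 to 0.06 with them and Flt1 of 0.46 to 0.56, while Kdr and Flt1 had r = 0.72 with each other. In the retina the 28 pairs had a median r of 0.43, the 8 pairs with Kdr 0.59 and the 8 with Flt1 0.62, and Kdr and Flt1 had r = 0.87. These are correlations over 12 libraries of 4 groups that share their depth and their tissue mixture within a library. The 20 relations of the 10 genes with the rod and the RPE sums were computed over the eye cups, on a log scale, with Benjamini-Hochberg adjustment of two-sided permutation p-values. Cldn5 followed the RPE sum (r = 0.89, adjusted permutation p = 0.0014; rho = 0.86, adjusted permutation p = 0.0057), with r = 0.87 without the 2 libraries farthest from the median and r = 0.92 for deviations from group means.

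Plvap did so too (r = 0.86, adjusted permutation p = 0.0028; rho = 0.83, adjusted permutation p = 0.0073; r = 0.81 without the 2 farthest libraries and 0.82 within groups). For Kdr r was -0.19 (adjusted permutation p = 0.567; rho = -0.08, adjusted permutation p = 0.801), but it was -0.72 without the 2 farthest libraries, PRDM13-OE dox eye cups 1 and 3, and -0.48 within groups, so the pooled value rests on those 2 libraries. Against the rod sum Plvap had r = -0.65 (adjusted permutation p = 0.0346) and rho = -0.62 (adjusted permutation p = 0.050). Its r was -0.42 without the 2 libraries farthest on the rod sum, PRDM13-OE dox eye cup 2 and wildtype untreated eye cup 2. Kdr had r = 0.48 (adjusted permutation p = 0.133; rho = 0.55, adjusted permutation p = 0.0832), and r was 0.83 without those 2 libraries and 0.25 for deviations from group means. The share of Kdr in the counts of the 10 genes ran from 3.67% to 34.6% over the eye cups.

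**Figure D5:**
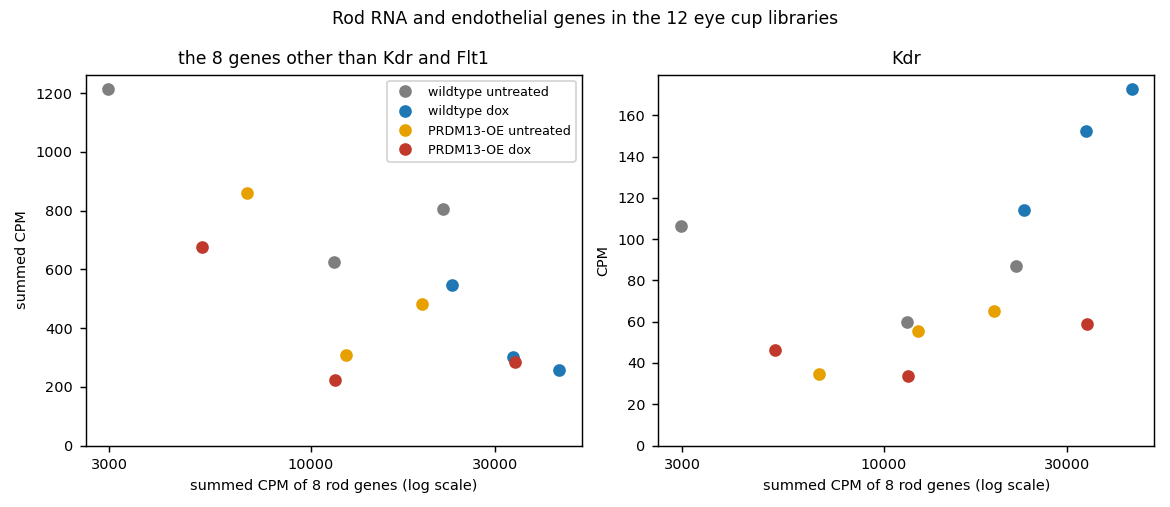
Summed CPM of the 8 genes other than Kdr and Flt1 (left) and CPM of Kdr (right) against the summed CPM of 8 rod genes (log scale) in the 12 eye cups, coloured by group. On the right the 3 wildtype dox eye cups, with 23153 to 44073 CPM of rod genes, hold Kdr at 114 to 173 CPM, and the PRDM13-OE dox eye cup with 33769 CPM of rod genes holds it at 58.7 CPM.

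The genes most like the 10 were found from the mean of their standardised log2 levels. In the eye cup, among 15438 genes, these were Mmrn2 (r = 0.99), Sox18 (0.97), Fam174b (0.97), Lhx6, Robo4, Slc9a3r2, Clec14a and Adgrf5 (each 0.96) over 12 libraries. Mmrn2, Sox18, Robo4 and Clec14a are known endothelial genes and were on the other pan-endothelial list. In the retina, among 14776 genes, they were Thsd7b (0.95), Efhd2 (0.92), Card10 (0.92), Wnk2 (0.91), Pxn (0.91), Vat1 (0.90), Adora1 (0.90) and Marveld3 (0.90), none of which was on a vessel list. Of the 10 genes themselves Flt1 was nearest that mean in the retina (r = 0.93) and Plvap farthest (-0.12), and in the eye cup Plvap was nearest (0.97) and Kdr farthest (0.14).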

How the data were processed

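Poly(A) RNA of neural retina and eye cup was sequenced, mapped and quantified for the authors by Novogene, with 3 libraries in each of 8 groups. Per the submitters' processing notes the reads were handled with CASAVA and HISAT2 on GRCm39 (mm39); the versions, the counter, the annotation and the use of strand are not given in the sources used here. The deposited table holds read counts per gene, not normalized, for 24 libraries. It also holds the authors' FPKM values, which were used for comparing genes with each other. The fold changes and p-values in the authors' own comparison files were not used. The human transgene RNA was not analysed here.

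The counts were fitted with edgeR 4.0.16 in R 4.3.3 (TMM factors, glmQLFit and glmQLFTest), for the libraries of each comparison and the genes with at least 10 counts summed over them, with Benjamini-Hochberg adjustment over all genes tested. Genes were called below an adjusted p of 0.05 when the absolute log2 difference exceeded 1, the study's cutoffs; the same test without the fold cutoff is given beside it. SE is the log2 fold change divided by the square root of F. The untreated wildtype tissues and the dox-treated genotypes were compared in the same way, and differences between responses as interaction terms. The model was tested on simulated data. Alternatives were DESeq2 1.42.0, library size scaling, other filters, robust fitting, a replicate block, each library left out, all 12 libraries of a tissue, and the lens crystallin sum (retina) or rod sum (eye cup) as covariate; sex as covariate was added after seeing the data. The labels state no litter, batch or day for the replicate numbers. Between groups these numbers belong to different mice, so the block is an alternative. Within a group the retina and eye cup of the same number are from 1 mouse. Correlations used log2(CPM + 0.5) and 100000 permutations. With 3 mice a group the precision is limited by the spread between mice, against which the p-values set each difference.

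The 10 genes and all lists were chosen with earlier results of these data known. Named genes are the 10 members, of each vascular list the genes called or else the one with the smallest adjusted p (with no fold cutoff, those that passed were added in the main retina comparison), of other lists those called between PRDM13-OE dox and wildtype dox, and for each tissue the 8 genes with the highest correlation with the members' mean among genes with a median CPM of at least 1. Promoter windows were read from the GRCm39 sequence and its GENCODE annotation with Python 3.11.15.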

Additional observations from a re-analysis of the deposited data

Results flagged for a closer look

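Of the 10 genes 4 responded to dox unequally in the 2 genotypes of retina, by the interaction term of edgeR's quasi-likelihood test over 12 retinas, with no fold cutoff. In all 4 the difference was below 0, where 1.83% of all genes passed in that direction. The difference between genotypes in the log2 fold change with dox was -1.24 for Kdr (adjusted p = 4.9e-05), -1.04 for Tie1 (adjusted p = 0.0061), -0.54 for Flt1 (adjusted p = 0.0095) and -0.71 for Tek (adjusted p = 0.0453), which kept the threshold in only 5 of 20 alternatives. Among wildtype retinas dox went with log2 fold changes of 0.13 for Kdr, 0.41 for Tie1, 0.13 for Flt1 and 0.09 for Tek, none of them past the threshold. In PRDM13-OE retinas they were -1.11 for Kdr, -0.62 for Tie1, -0.41 for Flt1 and -0.62 for Tek. For Kdr, Flt1 and Tek, but not Tie1, the 3 PRDM13-OE dox retinas lay below all other 9 retinas, as they did for Cdh5.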

How the results depend on the processing

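In the comparison of PRDM13-OE dox with wildtype dox retinas Kdr and Flt1 kept their direction and their side of the threshold under all 15 alternatives. Emcn changed sign without wildtype dox retina 3 (log2 fold change -0.46 with all libraries, -0.89 to 0.028 on leaving out 1); the cause was not tested, here or for the counts that follow. Without the fold cutoff the genes called went from 495 to 2575 (members from 1 to 6) between PRDM13-OE dox and wildtype dox retinas, from 214 to 1031 (members from 1 to 5) between PRDM13-OE dox and untreated retinas, from 196 to 682 (members from 2 to 4) in the retina interaction, and from 0 to 1 between untreated retinas. The lens crystallin covariate, which did not overlap between PRDM13-OE dox and wildtype dox retinas, left 173 of the 495 called. With no filter on low counts the calls were 329, 464 and 47 in the last 3 of these comparisons, and library size scaling called 1 member among 200 genes in the retina interaction.

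Between wildtype dox and untreated retinas 1 gene was called, against 26 with DESeq2, 7 with library size, 186 with no filter, 9 with robust fitting, 21 with the replicate block and 0 with all 12 libraries, the lens covariate or the sex covariate; leaving out 1 library gave 0 to 126. DESeq2 called 2 genes between untreated retinas, where leaving out 1 library gave 0 to 3. In the retina interaction leaving out 1 library gave 1 to 2 members among 140 to 255 genes called.

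In the eye cup the counts were less stable. Between PRDM13-OE dox and wildtype dox 4 genes were called, against 121 (members 1) with DESeq2, 8 with no filter and 0 with the replicate block, all 12 libraries or sex; leaving out 1 library gave 0 to 1767 (members 0 to 1), the highest without PRDM13-OE dox eye cup 3. Between wildtype dox and untreated 0 were called, against 1968 (members 5) with DESeq2, 756 with library size, 1060 (members 4) with no filter and 0 to 1991 (members 0 to 6) on leaving out 1 library. Between PRDM13-OE dox and untreated 3 were called, against 59 with DESeq2, 5 with no filter, 32 with the rod covariate and 0 with the replicate block, all 12 libraries or sex, and 0 to 4 on leaving out 1 library. DESeq2 called 3 genes between untreated eye cups (0 to 298 on leaving out 1 library, the highest without PRDM13-OE untreated eye cup 1), 26 in the eye cup interaction (0 to 4) and 35 in the interaction of genotype and tissue (0 to 2137, the highest without PRDM13-OE dox eye cup 3), where edgeR called 0 in each. The replicate block changed no count of members called.

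Emcn and Plvap had few counts in the retina, 19 to 63 and 86 to 136 a library, and the part of depth in their spread was not tested. There were 3 mice a group, and all 3 PRDM13-OE dox mice were female. Rod sums were 2976 to 44073 CPM in the eye cups, and the spread between eye cups of 1 group was often wide. The part of the rod RNA in the undetected differences was not tested beyond the rod covariate.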

Other observations

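Kdr alone was set against the other retina genes after its values were seen, on the same scale as the 10 genes together. Over 12 retinas the nearest genes were Rtn4 (r = 0.99), Pygm (0.98), Unc5b (0.98), Plekho2 (0.98), Wscd2 (0.98), Ddb1 (0.98), Mfge8 (0.97) and Add1 (0.97), of which Unc5b is on a vessel list. Over 12 eye cups they were Zfp608 (0.93), Zfp609 (0.93), Prrc2a (0.92), Ube4a (0.91), Acaca (0.91), Prrc2b (0.90), Plxna4 (0.89) and Pdk3 (0.89), none of which is on a vessel list. These correlations carry the group differences and are a description.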
